A study of Mus musculus with 56 samples.

Results

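The liver genes that separated a high dose of zalfermin from a high dose of semaglutide were compared in 16 of the 56 mice of the study, chosen by their treatment label, 8 dosed with each drug. Zalfermin is a long-acting analog of fibroblast growth factor 21 (FGF21), and semaglutide is an agonist of the glucagon-like peptide-1 (GLP-1) receptor. All 16 were male C57BL/6J mice, 5 to 6 weeks old on arrival, that ate the AMLN diet, rich in trans-fat, fructose and cholesterol, for 36 weeks before dosing. A biopsy taken before dosing had to show steatosis and fibrosis, so these mice are a model of diet-induced obesity with metabolic dysfunction-associated steatohepatitis (DIO-MASH). Dosing was once a day under the skin for 8 weeks, with 0.2 mg/kg in the high-dose zalfermin group and 120 µg/kg in the high-dose semaglutide group. Low-dose zalfermin (0.05 mg/kg, 8 mice), low-dose semaglutide (3 µg/kg, 8 mice), DIO-MASH vehicle (8 mice) and chow-fed vehicle (8 mice) stand beside them where named. A combination group (8 mice, per the paper 0.05 mg/kg zalfermin with 3 µg/kg semaglutide) entered the shared fit and the principal components and is not described. The doses of the drugs were set apart by the study and are not matched in any unit, so each difference is between 2 drugs at the doses given.

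FGF21 is a hormone that the liver makes in fasting and under metabolic stress. It acts on cells that carry an FGF receptor together with the co-receptor beta-klotho, which hepatocytes carry. GLP-1 is a gut hormone whose receptor is found mainly in the pancreas and the nervous system, and its agonists lower food intake. Hepatocytes break down amino acids, turn the released ammonia into urea, and store surplus fat in droplets whose surface proteins set how the fat is kept and released.

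Of 14105 genes tested, 63 differed between the drugs at an adjusted p under 0.05 (quasi-likelihood test of edgeR, p-values adjusted by Benjamini and Hochberg), which is 0.447% of them. Of these, 19 (0.135% of the genes tested) were higher with zalfermin and 44 (0.312%) were lower. The number called was 143 by DESeq2, and it ran from 25 to 119 with 1 mouse left out of the edgeR fit. The genes that were higher include 6 enzymes of amino acid breakdown and the urea cycle, among them Got1, Hpd, Cps1, Asl and Cth. The genes that were lower include the lipid droplet proteins Cidea and Plin4, Themis, Gnai1 and Ephb2, and the matrix gene Postn. The median log2 fold change over all genes tested was -0.0035 after a scaling that centres the fold changes. At an unadjusted p under 0.05, 590 genes (4.18%) were higher and 771 (5.47%) were lower with zalfermin. The 8 zalfermin values and the 8 semaglutide values did not overlap at 22 of the 14105 genes (0.156%), 12 of them among the 63. Against the same 8 vehicle mice, 17.2% of genes were called for zalfermin and 2.43% for semaglutide. Of the 63, 7 of the 19 higher and 10 of the 44 lower genes were called for semaglutide against vehicle too. Cps1, Asl, Hpd, Themis, Gnai1 and Postn were among them, each moved by semaglutide in the direction of zalfermin. The semaglutide mean lay between the vehicle and zalfermin means at all 19 higher and 37 of the 44 lower genes, a share not counted over all genes. Those comparisons share their mice with the one between the drugs, and their values are given only side by side.

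**Figure D1:**
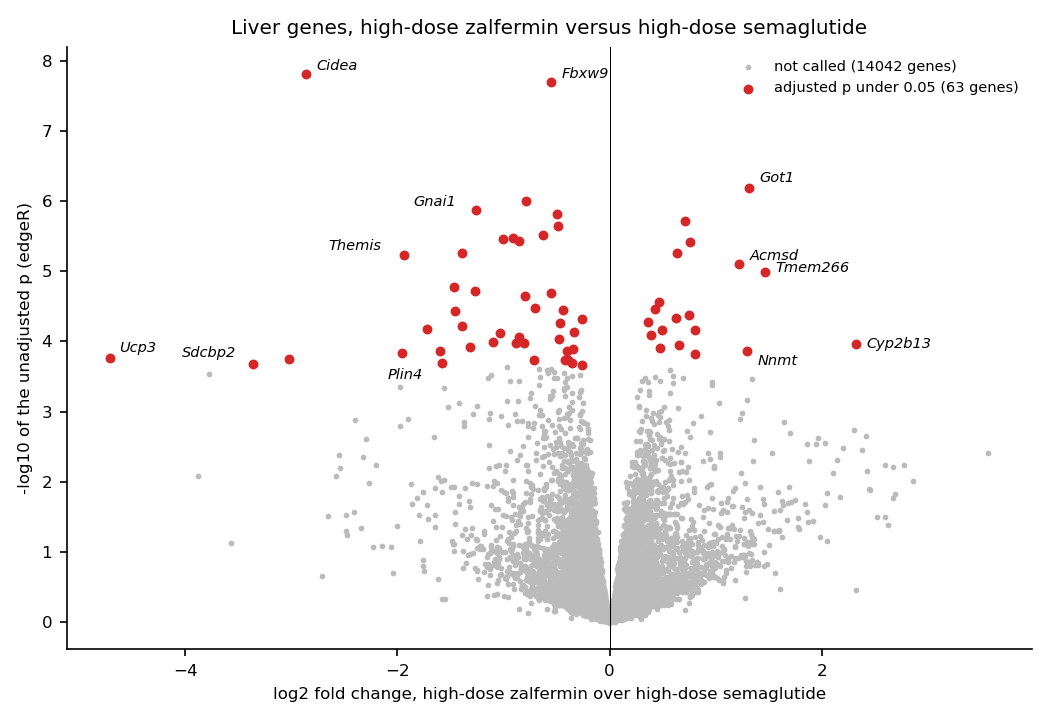
Each point is 1 of the 14105 genes tested, with the log2 fold change of high-dose zalfermin over high-dose semaglutide on the x axis and the -log10 of edgeR's unadjusted p on the y axis. The 63 genes in red passed an adjusted p of 0.05, with 44 on the lower side and 19 on the higher side, and Cidea and Fbxw9 lie highest.

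Libraries held 6211126 to 17124553 reads in the zalfermin group and 8315012 to 15848192 in the semaglutide group. The means of 10.5 ± 3.47 M and 12.9 ± 2.72 M reads (SD, n = 8) were not told apart by an exact two-sided permutation test (p = 0.141). On the first principal component over all 56 mice, which held 48.8% of the variance of the 500 most variable genes, the groups averaged 2.27 ± 6.15 and -3.10 ± 8.99 (SD, n = 8, exact permutation p = 0.188). On the second, with 10.3% of the variance, zalfermin averaged 5.08 ± 3.07 and semaglutide -1.21 ± 3.33 (SD, n = 8, exact permutation p = 0.00124). The smallest p that 8 against 8 mice allow is 0.00016. With log2 CPM (CPM are counts scaled to 1000000 reads a library) in place of the variance-stabilized counts, the difference on the second component was 1.64 and missed the threshold (exact permutation p = 0.271).

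The amino acid genes are introduced here by 3 promoters from the RefSeq table (build GRCm38.p6), since these genes were higher together. Each sequence runs 5′ to 3′ on the strand of the gene from 250 bases before to 50 after the start site, and capitals mark a match to 1 of 7 short motifs searched on both strands.
Got1, chr19:43524556-43524855, minus strand: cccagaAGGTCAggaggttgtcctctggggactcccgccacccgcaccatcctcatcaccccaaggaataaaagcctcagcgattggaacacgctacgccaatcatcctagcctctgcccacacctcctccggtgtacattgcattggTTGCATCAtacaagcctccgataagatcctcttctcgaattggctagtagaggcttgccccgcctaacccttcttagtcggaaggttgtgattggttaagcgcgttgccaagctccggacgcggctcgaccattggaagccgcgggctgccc
Hpd, chr5:123182674-123182973, minus strand: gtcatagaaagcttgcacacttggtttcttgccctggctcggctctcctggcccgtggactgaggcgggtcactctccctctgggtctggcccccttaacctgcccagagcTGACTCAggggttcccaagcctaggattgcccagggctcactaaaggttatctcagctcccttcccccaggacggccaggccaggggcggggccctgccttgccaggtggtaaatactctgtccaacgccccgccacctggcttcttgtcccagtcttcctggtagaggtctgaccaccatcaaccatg
Hgd, chr16:37579903-37580202, plus strand: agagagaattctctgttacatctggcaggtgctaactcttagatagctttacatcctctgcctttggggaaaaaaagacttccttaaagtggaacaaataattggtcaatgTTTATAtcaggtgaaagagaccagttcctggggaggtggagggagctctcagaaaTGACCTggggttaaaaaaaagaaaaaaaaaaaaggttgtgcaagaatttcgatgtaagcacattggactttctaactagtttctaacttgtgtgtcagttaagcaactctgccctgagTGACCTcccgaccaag
Matching the called genes by symbol gave 11 promoters for 11 of the 19 higher genes and 45 promoters for 35 of the 44 lower genes. AGGTCA, the half-site that many nuclear receptors bind, stood in 5 of the 11 promoters of higher genes (45.5%), in 8 of the 45 of lower genes (17.8%) and in 16.3% of all 32851 promoters of the table. TATAAA stood in 2 of 11, 3 of 45 and 13.6%. TGATGCAA, an element for C/EBP-ATF dimers, stood in 1 of 11, the one of Got1, in 0 of 45 and in 0.895%. TGACTCA, the AP-1 site, stood in 1 of 11, the one of Hpd, in 2 of 45 and in 5.20%. TGACGTCA (0 of 11, 1 of 45, 1.79%), CACGTG (1 of 11, 3 of 45, 7.15%) and TTCNNNGAA (0 of 11, 2 of 45, 8.30%) were searched too. These are matches of letters in a 300-base window and describe no binding.

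Amino acid breakdown and the urea cycle held more called genes than any other pathway list, apart from an equal number in a list taken from earlier results of these data. Of its 31 genes, 6 were called higher with zalfermin and 0 lower, and 28 had a fold change above 0. At an unadjusted p under 0.05, 21 were higher and 2 (Asns and Glul, which make asparagine and glutamine) were lower, beside 4.18% and 5.47% over all genes. The median log2 fold change of the list was 0.46.

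Got1 (chr19:43499752-43524605), the cytosolic aspartate aminotransferase that moves nitrogen between glutamate and aspartate, was measured at 130.5, 181.2 and 240.6 CPM (lowest, median and highest of 8 mice) with semaglutide. With zalfermin it stood at 276.3, 446.6 and 686.5 CPM. Every zalfermin mouse lay above every semaglutide mouse, with a log2 fold change of 1.31 ± 0.23 (SE, a 2.49-fold difference, adjusted p = 0.00303). The vehicle median was 134.5 CPM and the chow median 288.2 CPM, so the semaglutide mice lay nearer the vehicle level. Against vehicle, the log2 fold change was 1.73 for zalfermin (adjusted p = 3.59e-07) and 0.42 for semaglutide (adjusted p = 0.345).

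The urea cycle genes Cps1 and Asl were both higher. Cps1 (chr1:67123026-67231259), the carbamoyl phosphate synthetase that opens the cycle, ran from 1868 over a median of 2643 to 5560 CPM with semaglutide. It ran from 4431 over 4876 to 7086 CPM with zalfermin, and the ranges overlapped. Its log2 fold change was 0.80 ± 0.20 (SE, adjusted p = 0.0398). Asl (chr5:130011258-130029247), the argininosuccinate lyase that releases arginine, ran from 281 over 379.5 to 596.4 CPM with semaglutide and from 543.4 over 737.3 to 828.8 CPM with zalfermin. The log2 fold change was 0.76 ± 0.15 (SE, adjusted p = 0.00408). The other members of the cycle were not called, with log2 fold changes of 0.55 for Ass1, 0.45 for Arg1 and 0.40 for Otc.

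The tyrosine breakdown enzymes Hpd and Hgd were higher too. Hpd (chr5:123171807-123182727), 4-hydroxyphenylpyruvate dioxygenase, ran from 1158 over 2085 to 2739 CPM with semaglutide and from 2905 over 3422 to 4739 CPM with zalfermin. The groups did not overlap, and the log2 fold change was 0.75 ± 0.17 (SE, adjusted p = 0.0209). Hgd (homogentisate dioxygenase), which was in no list and is named after its value was seen, had a log2 fold change of 0.50 ± 0.12 (SE, adjusted p = 0.0273), with medians of 694.2 CPM for semaglutide and 908.3 CPM for zalfermin. Tat, the tyrosine aminotransferase that acts before Hpd, did not pass, at a log2 fold change of 1.03 (unadjusted p = 0.000746).

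Cth (cystathionine gamma-lyase), which makes cysteine, ran from 93.6 over 146.2 to 194.1 CPM with semaglutide and from 194.3 over 253.4 to 387.2 CPM with zalfermin. The groups met without overlapping, and the log2 fold change was 0.80 ± 0.19 (SE, adjusted p = 0.0273). Other members of the list with large values that did not pass were Hal (log2 fold change 0.99), Sds (0.95), Gls2 (0.73) and Gnmt (0.70), which act on histidine, serine, glutamine and, as a methyl acceptor, glycine.

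Got1 and Asl were called in all 16 fits that left out 1 mouse. Hpd was called in 12, Cth in 10, Hgd in 9 and Cps1 in 6, with the highest adjusted p at 0.0873, 0.101 and 0.114 for Hpd, Cth and Hgd (without zalfermin mouse 1) and 0.139 for Cps1 (without semaglutide mouse 7). Summed over 9 of the 10 hepatocyte markers listed, the level ran from 96094 to 151967 CPM in zalfermin mice and from 78125 to 138636 CPM in semaglutide mice. None of the 9 was at 0 CPM, and only Cps1 among them was called. All 9 had a log2 fold change above 0, with a median of 0.10. The part of hepatocyte content in these results was not tested, and in whole liver more cells of a type and more RNA per cell cannot be told apart.

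**Figure D2:**
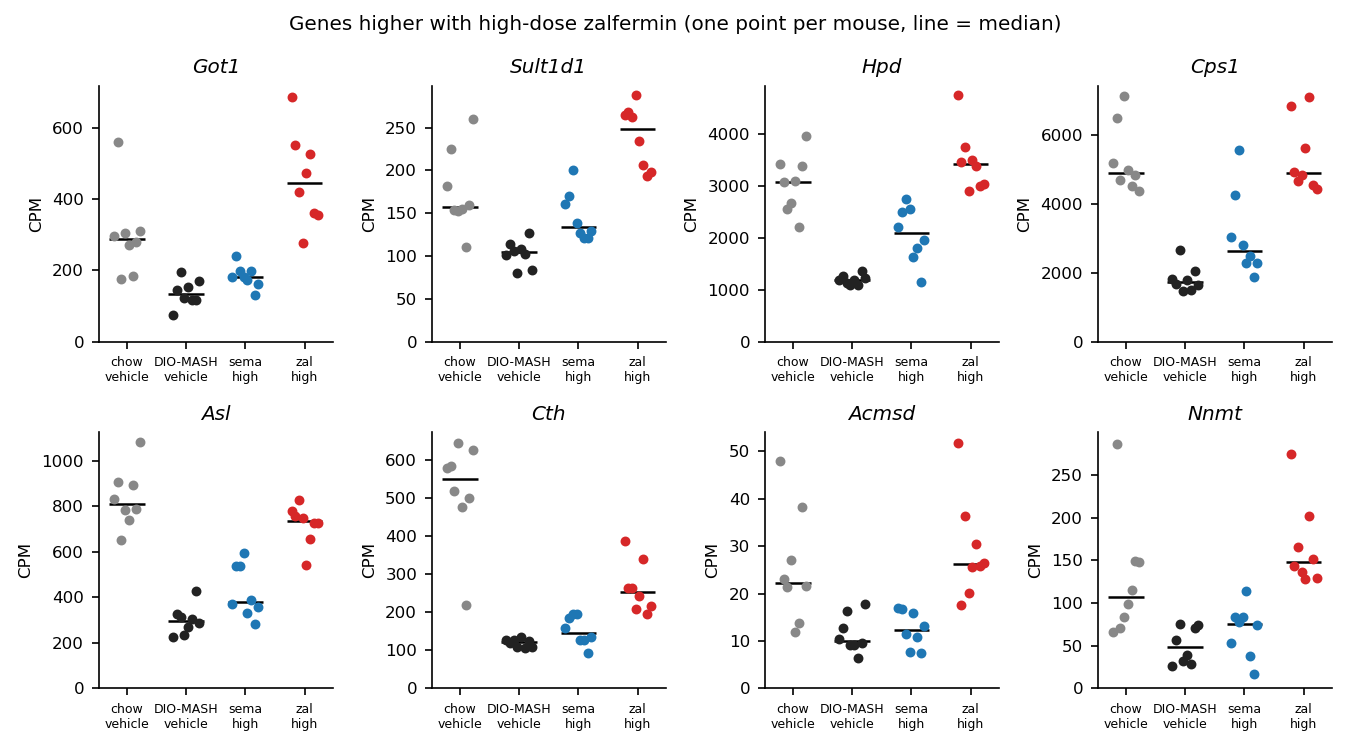
CPM of 8 genes that were higher with high-dose zalfermin, 1 point per mouse and a line at the median of each group of 8, with the chow and DIO-MASH vehicle mice beside both drugs. For Got1, Hpd, Cth, Acmsd and Nnmt every zalfermin point lies above every semaglutide point, and for Sult1d1, Cps1 and Asl the ranges overlap.

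Nnmt and Acmsd were higher as well. Nnmt (nicotinamide N-methyltransferase, which clears nicotinamide with a methyl group) stood at 16.2, 75.8 and 114.4 CPM (lowest, median, highest) with semaglutide and at 127.6, 147.5 and 274.7 CPM with zalfermin. The groups did not overlap, with a log2 fold change of 1.30 ± 0.32 (SE, adjusted p = 0.0372). Acmsd, the decarboxylase that turns the breakdown of tryptophan away from NAD synthesis, stood at 7.40, 12.3 and 16.98 CPM with semaglutide and at 17.6, 26.1 and 51.7 CPM with zalfermin. Its log2 fold change was 1.22 ± 0.25 (SE, adjusted p = 0.00659), again without overlap. Without zalfermin mouse 1 the adjusted p of Nnmt was 0.114, and Acmsd passed in all 16 fits with a mouse left out, at an adjusted p of 0.0401 or less.

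Conjugation enzymes and cytochromes P450 gave 2 called genes of 27, both higher. Sult1d1, a sulfotransferase of small phenols, had medians of 133.5 CPM with semaglutide and 248.7 CPM with zalfermin (log2 fold change 0.71 ± 0.13, SE, adjusted p = 0.00385), and Cyp39a1, which hydroxylates 24-hydroxycholesterol, 27.7 and 45.5 CPM (0.63 ± 0.14, SE, adjusted p = 0.0227). Cyp39a1 was called in 10 of the 16 fits with a mouse left out, with an adjusted p of 0.0816 without semaglutide mouse 7. The median of the list was 0.16, and 10 members were higher and 4 lower at an unadjusted p under 0.05.

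Cyp2b13, a cytochrome P450 with higher levels in female than in male mouse liver, was the largest rise among called genes with a mean of at least 1 CPM. It stood at 0, 0.571 and 2.99 CPM (lowest, median, highest) with semaglutide and at 0.936, 3.14 and 12.8 CPM with zalfermin. The log2 fold change was 2.32 ± 0.56 (SE, adjusted p = 0.0335), and the groups overlapped. Without zalfermin mouse 1 the adjusted p was 0.129. It is near-identical to other Cyp2b genes, and how reads shared between such genes were counted is not given in the sources used here. It was the 1 called gene of 27 female-biased liver genes, whose median was 0.36, with 7 higher and 0 lower at an unadjusted p under 0.05. Of 26 male-biased genes, 0 were called (2 at an unadjusted p under 0.05, both lower). Further rises were in Tmem266, a membrane protein, with medians of 0.605 and 1.498 CPM (log2 fold change 1.46 ± 0.30, SE, adjusted p = 0.00802), and in Rprd1a, which binds the tail of RNA polymerase II, with 4.53 and 6.94 CPM (0.65 ± 0.16, SE, adjusted p = 0.0339). The mice did not overlap at Rprd1a, which lost its call in 8 of 16 fits with a mouse left out (adjusted p = 0.116 without zalfermin mouse 6), and did overlap at Tmem266.

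Lipid droplet proteins were among the lower genes. Of 18 tested, 2 were called lower and 0 higher, 7 were lower at an unadjusted p under 0.05, and the median log2 fold change was -0.29. Cidea, which fuses droplets into larger ones, had the smallest p of all genes tested. With semaglutide it stood at 5.58, 20.6 and 43.997 CPM (lowest, median, highest), and with zalfermin at 0.243, 2.27 and 7.28 CPM. The lowest semaglutide mouse lay within the zalfermin range and the other 7 above it, and the log2 fold change was -2.87 ± 0.43 (SE, a 7.29-fold difference, adjusted p = 0.00014). The vehicle median was 47.2 CPM and the chow median 0.147 CPM. Against vehicle, the log2 fold change was -3.999 with zalfermin (adjusted p = 2.66e-09) and -1.13 with semaglutide (adjusted p = 0.0791). It was called in all 16 fits with a mouse left out, at an adjusted p of 0.000851 or less.

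Plin4 (chr17:56100591-56109803), a coat protein of droplets, ran from 16.4 over 28.7 to 56.1 CPM with semaglutide and from 1.46 over 10.7 to 21.2 CPM with zalfermin. The ranges overlapped, with a log2 fold change of -1.58 ± 0.40 (SE, adjusted p = 0.047). It was called in 5 of the 16 fits with a mouse left out, and without semaglutide mouse 7 its adjusted p was 0.139. Cidec (log2 fold change -1.56) and Plin2 (-0.59), other droplet proteins, did not pass. Among 18 genes of fatty acid uptake and steatotic targets of PPARG, 0 were called and 4 were lower at an unadjusted p under 0.05, with Cfd at -1.91, Mogat1 at -0.97 and Pparg itself at -0.51. De novo lipogenesis had 0 called of 21, a median of -0.0032, and 1 member lower at an unadjusted p under 0.05.

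**Figure D3:**
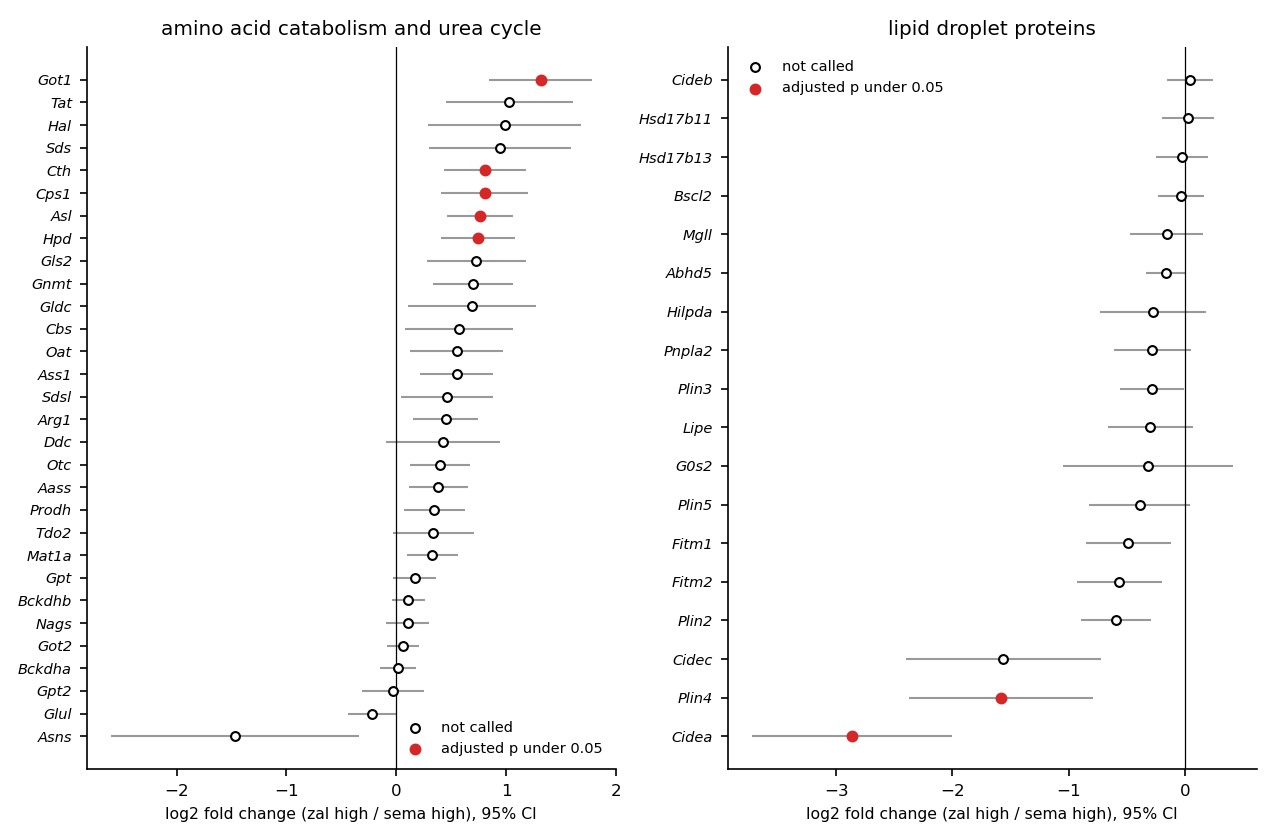
Log2 fold change of high-dose zalfermin over high-dose semaglutide with its 95% confidence interval for 30 of the 31 genes of amino acid breakdown and the urea cycle (left) and the 18 lipid droplet genes (right), with called genes in red. On the left 27 of 30 points lie above 0 and Got1 is highest, and on the right Cidea and Plin4 lie lowest.

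Themis, Gnai1, Ephb2 and Shc2 are described together by a choice made after their values were seen. Themis (chr10:28668360-28883818), known for its part in T cell receptor signalling in the thymus, stood at 8.06, 12.1 and 22.8 CPM (lowest, median, highest) with semaglutide and at 1.82, 2.99 and 5.37 CPM with zalfermin. The groups did not overlap, and the log2 fold change was -1.94 ± 0.39 (SE, adjusted p = 0.00506). The vehicle median was 32.05 CPM and the chow median 1.54 CPM. It was the only called gene of 9 T cell markers tested, and the other 8 had log2 fold changes of 0.38 (Cd8a) to 1.36 (Cd4), of which Cd4 had an unadjusted p of 0.00251. The summed level of the list, Themis included, was 7.99 to 30.01 CPM with zalfermin and 11.4 to 32.5 CPM with semaglutide, none of its members in the table was at 0 in either group, and its part in this result was not tested.

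Gnai1, an inhibitory G protein alpha subunit, ran from 12.05 over 13.9 to 24.5 CPM with semaglutide and from 3.40 over 6.12 to 9.57 CPM with zalfermin. The groups did not overlap (log2 fold change -1.26 ± 0.23, SE, adjusted p = 0.0036). Ephb2, a receptor tyrosine kinase for ephrin-B ligands, had medians of 13.1 CPM with semaglutide and 5.31 CPM with zalfermin (-1.60 ± 0.39, SE, adjusted p = 0.0372, 0.139 without semaglutide mouse 7). Shc2, an adaptor of receptor tyrosine kinases, had medians of 6.32 and 2.08 CPM (-1.96 ± 0.48, SE, adjusted p = 0.0385, 0.133 without the same mouse). Gnai1 passed in every fit with a mouse left out.

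Sdcbp2 (syntenin-2, a PDZ domain protein) had the largest fall among called genes with a mean of at least 1 CPM. With semaglutide it ran from 0.443 over 3.02 to 12.7 CPM and with zalfermin from 0 over 0.246 to 0.936 CPM. The log2 fold change was -3.36 ± 0.84 (SE, adjusted p = 0.047), and it lost its call in 13 of 16 fits with a mouse left out, with an adjusted p of 0.164 without semaglutide mouse 7. Sdcbp2, Cidea, Shc2, Themis, Ermp1 and Unc119 are the 6 called members of a list of 18 genes taken from earlier results of these data, which is no independent evidence of their direction. Ermp1, a metallopeptidase of the endoplasmic reticulum, had medians of 81.4 and 53.6 CPM (-0.63 ± 0.12, SE, adjusted p = 0.00408), and Unc119, a carrier of lipid-modified proteins, 10.3 and 5.52 CPM (-0.80 ± 0.17, SE, adjusted p = 0.0143).

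The rest of the 12 largest falls were of genes with varied known roles. Fam83a (medians of 11.8 CPM with semaglutide and 3.99 CPM with zalfermin, log2 fold change -1.72), Lrrc39 (5.47 and 1.81 CPM, -1.47), Cntnap1 (6.38 and 2.53 CPM, -1.46), Uap1l1 (38.3 and 13.2 CPM, -1.39), Pnldc1 (5.33 and 1.89 CPM, -1.39) and Rad51b (14.1 and 4.94 CPM, -1.32) were all called, at adjusted p-values from 0.00506 for Pnldc1 to 0.0365 for Rad51b. Cntnap1 is known from the axon next to the node, Pnldc1 trims piRNAs, and Rad51b takes part in DNA repair by recombination. Lrrc39 and Pnldc1 were called in all 16 fits with a mouse left out, and the others in 14 (Cntnap1), 10 (Fam83a and Uap1l1) and 5 (Rad51b).

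Fbxw9 and Fam102a were lower, with semaglutide medians close to those of vehicle mice. Fbxw9, which recruits substrates to a ubiquitin ligase, stood at 25.6, 30.3 and 33.7 CPM (lowest, median, highest) with semaglutide and at 15.7, 20.95 and 23.5 CPM with zalfermin. The vehicle median was 32.2 CPM and the chow median 35.99 CPM, so the zalfermin median lay below the other 3. The groups did not overlap, and the log2 fold change was -0.55 ± 0.084 (SE, adjusted p = 0.00014). Fam102a had medians of 78.6 CPM with semaglutide, 45.4 CPM with zalfermin, 84.8 CPM with vehicle and 44.3 CPM with chow (-0.89 ± 0.21, SE, adjusted p = 0.0335). It did not overlap between the drugs, and without zalfermin mouse 1 its adjusted p was 0.106.

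Several of the smaller falls, named after their values were seen, were in genes with well known roles. Mtor, the kinase of the nutrient-sensing mTOR complexes, had medians of 82.8 CPM with semaglutide and 58.6 CPM with zalfermin (log2 fold change -0.44 ± 0.098, SE, adjusted p = 0.0193). Chkb, a choline kinase of phosphatidylcholine synthesis, had 26.3 and 18.1 CPM (-0.49 ± 0.091, SE, adjusted p = 0.0036), and Tlr5, the receptor for flagellin, 19.3 and 11.1 CPM (-0.91 ± 0.18, SE, adjusted p = 0.00408). Pla2g6, a calcium-independent phospholipase, had 102.9 and 61.9 CPM (-0.79 ± 0.14, SE, adjusted p = 0.00348). The vehicle medians were 86.3 CPM for Mtor, 25.3 CPM for Chkb, 21.2 CPM for Tlr5 and 100.2 CPM for Pla2g6, each nearer to semaglutide. Chkb, Tlr5 and Pla2g6 passed in all 16 fits with a mouse left out, and Mtor in 14, with an adjusted p of 0.0754 without zalfermin mouse 1.

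Ucp3, the uncoupling protein of muscle and brown fat mitochondria, is named after its values were seen, since it lay under 1 CPM. It had 0 reads in all 8 zalfermin mice and 28 reads over 7 of the 8 semaglutide mice. The edgeR test gave a log2 fold change of -4.71 (adjusted p = 0.0442), an estimate that rests on a group with 0 reads. Set against a floor of 3 reads over the zalfermin group, Ucp3 was 7.29-fold lower with zalfermin, a ratio that was not tested. The floor takes the 28 semaglutide reads as exact, so this fold is not a lower limit. Ucp3 was called in 5 of 16 fits with a mouse left out and in 3 of the 8 other alternatives, and DESeq2 gave it no adjusted p.

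**Figure D4:**
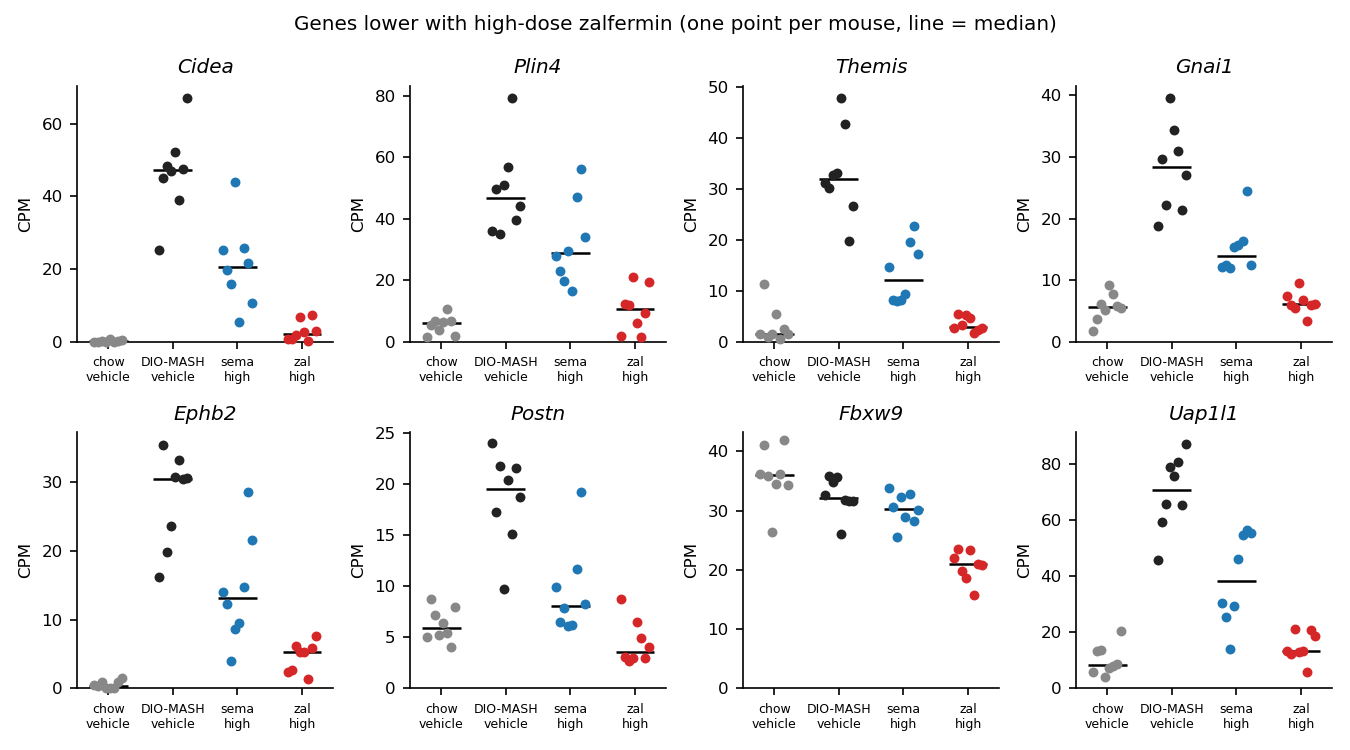
CPM of 8 genes that were lower with high-dose zalfermin, 1 point per mouse and a line at the median of each group of 8. For Themis, Gnai1 and Fbxw9 every zalfermin point lies below every semaglutide point, and the vehicle median of Cidea, 47.2 CPM, falls to 20.6 CPM with semaglutide and 2.27 CPM with zalfermin.

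Matrix genes gave 1 call. Postn (periostin), a secreted protein of activated fibroblasts, ran from 6.14 over 8.07 to 19.2 CPM with semaglutide and from 2.68 over 3.55 to 8.75 CPM with zalfermin. The ranges overlapped, the log2 fold change was -1.10 ± 0.26 (SE, adjusted p = 0.0335), and the call was lost in 10 of 16 fits with a mouse left out, at an adjusted p of 0.153 without semaglutide mouse 7. It was the 1 called of 37 matrix remodelling genes, whose median was -0.15. Of 17 collagens 0 were called, 16 had a fold change below 0, and 9 were lower at an unadjusted p under 0.05, among them Col3a1 (-0.93) and Col1a1 (-0.84), with a median of -0.53. Summed over 10 stellate cell markers, the level ran from 443.7 to 758.1 CPM with zalfermin and from 509.2 to 1325 CPM with semaglutide. None was at 0 CPM. All 10 had a log2 fold change below 0, with a median of -0.26 and 0 called, and the part of stellate cell content was not tested.

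Klb and the FGF receptor genes were not called. The paper names FGFR1, FGFR2 and FGFR3, together with beta-klotho, as the receptors of FGF21. Klb, which encodes beta-klotho, had medians of 36.7 CPM with semaglutide and 43.05 CPM with zalfermin, and a log2 fold change of 0.27 with a 95% confidence interval of -0.019 to 0.56 (adjusted p = 0.566). Fgfr4, the main FGF receptor of hepatocytes, had 32.6 and 35.4 CPM (0.24, interval -0.0016 to 0.48, adjusted p = 0.517). The intervals for Fgfr1 (-0.42 to 0.49), Fgfr2 (-0.22 to 0.47) and Fgfr3 (-0.32 to 0.62) included 0, and differences within these intervals remain possible. Fgf21, the hormone's own gene, stood at 1.24, 2.94 and 8.48 CPM (lowest, median, highest) with semaglutide and at 0.121, 1.65 and 2.65 CPM with zalfermin (log2 fold change -1.06 ± 0.40, SE, unadjusted p = 0.0106, adjusted p = 0.274). Glp1r had 3 reads in all 16 mice together and was not tested.

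Across the 32 pathway lists, 6 held a called gene and 26 held none. The medians of the 26 ran from -0.53 (collagens) to 0.16 (secreted hepatokines). Among those with 0 called were bile acid synthesis and transport (24 genes, median 0.090), where Cyp7a1, the rate-limiting enzyme of bile acid synthesis, had a log2 fold change of 0.92 at an unadjusted p of 0.0119. Oxidative phosphorylation (26 genes, median 0.075), fatty acid oxidation and ketogenesis (29 genes, median -0.11), cholesterol handling (28 genes, median 0.068), the ATF4 stress response (22 genes, median 0.014) and the NRF2 response (22 genes, median -0.29, 6 lower at an unadjusted p under 0.05) also held 0. Of the 63 called genes, 46 were in no list.

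Among the markers of other cells, B cell genes had the largest median. All 7 tested were above 0, with a median log2 fold change of 1.69, 6 had an unadjusted p under 0.05 and 0 were called. Their summed level was 11.5, 18.4 and 188.2 CPM (lowest, median, highest) with zalfermin and 7.63, 11.2 and 28.6 CPM with semaglutide, and 9.17 to 187.1 CPM in vehicle mice. Kupffer cell markers had a median of 0.47, monocyte-derived macrophage markers -0.35, sinusoidal endothelial markers -0.092, cholangiocyte markers 0.077 and red blood cell markers -0.54, with 0 called in each. Adipocyte markers had 5 of 9 tested, with a median of -0.38. The 2 pancreas and 4 gallbladder and gut markers tested had medians of 0.33 and -0.16.

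The low-dose groups, which share no mouse with the high-dose comparison but share the fit's estimate of the spread, were used to look at the same genes. Between low-dose zalfermin and low-dose semaglutide 0 of 14105 genes were called by edgeR or by DESeq2. An unadjusted p under 0.05 was found at 617 (4.37%) by edgeR and at 647 by DESeq2. Without low-dose semaglutide mouse 6 the edgeR count at that threshold was 833, again with 0 called. Of the 63 genes called at the high doses, 52 had a low-dose difference of the same direction (82.5%), beside 56.9% of all genes tested. An unadjusted low-dose p under 0.05 was found at 13 of the 63 (20.6%, beside 4.37% over all genes). All 13 had the same direction, beside 457 of the 617 genes with such a p over all genes tested. The median log2 fold change of the 19 higher genes was 0.71 at the high doses and 0.30 at the low doses, and that of the 44 lower genes was -0.86 and -0.14.

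The higher genes among the 13 include Got1, Acmsd, Asl, Hgd, Sult1d1 and Ttc38, and the lower were Fbxw9, Rad51b, Unc119, Slc6a9, Scamp5 and Vps11. Got1 stood at 110.7, 149.8 and 364.6 CPM (lowest, median, highest) with low-dose semaglutide and at 195.1, 263.6 and 427 CPM with low-dose zalfermin (log2 fold change 0.55 ± 0.23, SE, unadjusted p = 0.0197). Fbxw9 stood at 25.6, 33.6 and 35.1 CPM and at 21.8, 24.1 and 30.2 CPM (-0.36 ± 0.083, SE, unadjusted p = 7.06e-05, adjusted p = 0.249). Both overlapped between the groups. Cidea had a low-dose log2 fold change of -0.50 (unadjusted p = 0.176) and Themis one of -0.16 (unadjusted p = 0.63). Cyp2b13 and Ucp3 took the opposite sign, at -0.35 (unadjusted p = 0.559) and 1.13 (unadjusted p = 0.0724). So did Ephb2 (0.30), Pla2g6 (0.13), Rprd1a (-0.088), Postn (0.027), Fam102a (0.024) and Pnldc1 (0.0057), among others, these 6 at an unadjusted p of 0.36 or more. The difference between the drugs at the high minus the low doses was called at 0 genes by edgeR (525 at an unadjusted p under 0.05) and at 0 by DESeq2 (553), and at 1 gene, Pnldc1, by edgeR fitted to only the groups compared. An unadjusted p under 0.05 for it was found at 43 of the 63 genes (34 of the 44 lower and 9 of the 19 higher), beside 3.72% of all genes. The 63 were chosen for the high-dose difference that is part of this contrast, so nothing is read from that count.

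**Figure D5:**
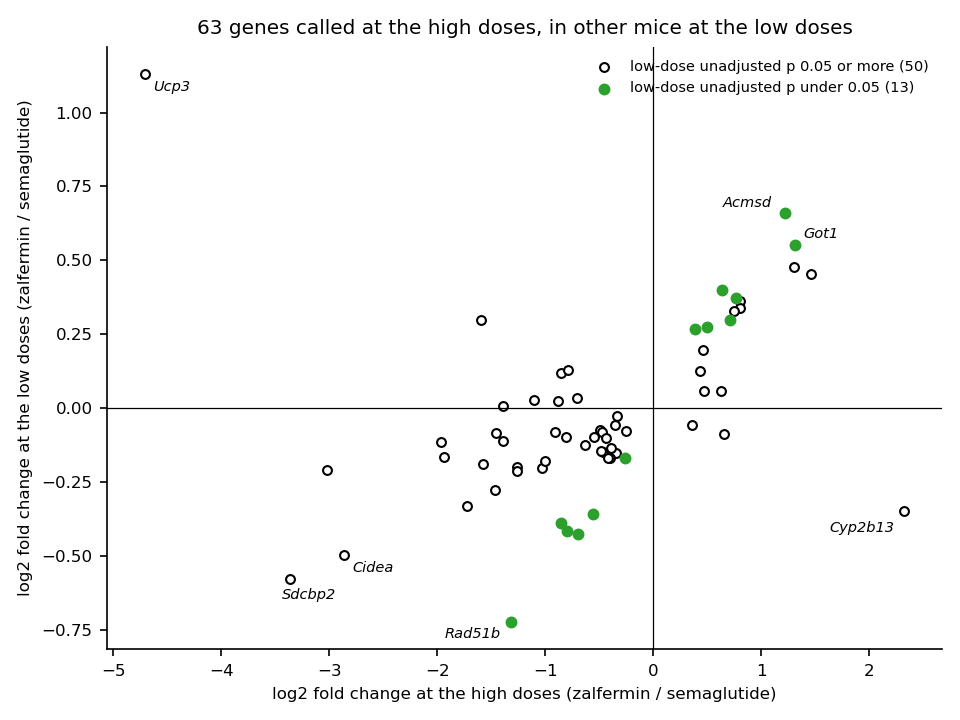
The 63 genes called at the high doses, with the log2 fold change of zalfermin over semaglutide at the high doses on the x axis and at the low doses, in other mice, on the y axis. Green points are the 13 with an unadjusted low-dose p under 0.05, all in the quadrants of equal sign, and 52 of the 63 points lie in those quadrants. Over all genes tested, 457 of the 617 with such a p had equal signs.

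The sample numbers in the labels were cut here into 4 blocks, called series, which the labels themselves do not mark. Series A, B and C hold mice of both high-dose groups (3, 3 and 2 zalfermin mice and 4, 2 and 2 semaglutide mice). For Got1 the log2 differences within the 3 series were 1.44, 1.14 and 1.30, for Cidea -3.94, -2.30 and -1.58, and for Themis -1.27, -1.77 and -2.76. Of the 63 genes, 21 were called in all 16 fits with a mouse left out and in the 8 other alternatives. These include Got1, Acmsd, Asl, Sult1d1 and Tmem266 among the higher, and Cidea, Themis, Gnai1, Fbxw9, Lrrc39, Pnldc1, Unc119, Ermp1, Chkb, Sh3bgrl2, Scamp5, 2010003K11Rik, Pla2g6, Cox19 and Tlr5 among the lower.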

How the data were processed

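The authors deposited a table of raw read counts per gene (21935 genes, 56 livers), without normalization. Per the authors, stranded mRNA libraries were read on a NextSeq 500, and STAR aligned the reads (GRCm38). The submitters' processing notes name Trim Galore 0.6.4 and Salmon 1.9.0. Which program gave the counts, and whether strand was used, is not given in the sources used here, so reads of overlapping genes cannot be told apart. The study left out 1 low-dose semaglutide mouse that the labels do not name, so all were kept and each was left out in turn. Low-dose semaglutide mouse 6 lay at 17.6 on the first principal component, with the next highest of its group at -1.99. Whether it is the mouse that the study left out is not given.

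The 14105 genes that reached 5 reads in at least 3 mice were tested with edgeR 4.0.16 in R 4.3.3 (TMM scaling, 1 quasi-likelihood fit of 7 groups without covariates, contrast of both high-dose groups, Benjamini-Hochberg adjustment over all genes tested, threshold 0.05). Fold changes are from that fit. Each SE was derived from its test, as the size of the log2 fold change divided by the square root of the F statistic. Intervals are that SE times a t quantile on either side. CPM values use the library sizes of the fit, and the within-series differences are of log2(CPM + 0.5). Components used vst of DESeq2 1.42.0. Their signs were set so that chow mice averaged above DIO-MASH vehicle mice on the first and combination mice above them on the second. Mice are numbered in the order of their accessions. Exact two-sided permutation tests used 8 against 8 mice. Named genes are the 12 largest rises and falls among called genes with a mean of 1 CPM or more, called genes in a list, Fgf21, its receptors and Glp1r, and the 5 largest called genes in each direction without overlap. The comparison, gene lists and markers were chosen with earlier results of these data known. Gene positions are from GENCODE M21 (GRCm38). On simulated counts with 197 genes changed among 13851, 85.3% were recovered with 2.33% false calls. Every simulated gene had a dispersion of 0.05, and each change was a log2 fold change of 1 in either direction. Smaller changes and mice that stand apart were not simulated, so these shares are a check of the code and not rates for the real comparison. Counts of the most alike pair within either high-dose group had a chi-square per degree of freedom of 11.2, so no library was a copy of another in its group. Pairs across groups and in the other groups were not compared. The mice of a group are separate animals. Some genes and a promoter are not reported here. Figures were drawn with matplotlib 3.10.9. Body weight was not used here.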

Additional observations from a re-analysis of the deposited data

Results flagged for a closer look

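Dixon's ratio was taken in 82 groups of 8 values (38 named genes, total reads and 2 principal components, in each of both high-dose groups). In 6, a highest mouse stood apart from the other 7 at its 95% level. That level gives about 1 in 20 for independent values of a normal distribution. These groups share mice and the shape of their values was not checked, so nothing is read from the count.

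In the zalfermin group, mouse 1 had 4739 CPM of Hpd, with the next mouse at 3746 CPM, and mouse 6 lay at 15.6 on the first principal component, with the next at 5.597. In the semaglutide group, mouse 7 stood apart at 3 genes that were lower with zalfermin, with 12.7 CPM of Sdcbp2 (next 5.56 CPM), 19.2 CPM of Postn (next 11.7 CPM) and 24.5 CPM of Gnai1 (next 16.4 CPM). Without that mouse Gnai1 kept its call (adjusted p = 0.0156) and Sdcbp2 and Postn lost theirs (0.164 and 0.153). Mouse 2 of the same group had 8.48 CPM of Fgf21, with the next at 3.91 CPM. The cause of these values was not tested.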

How the results depend on the processing

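The number of genes called between the high-dose groups was 143 by DESeq2's Wald test (61 of the 63 shared), and stayed within 1.5 times of 63 with DESeq2's size factors (66), no filter (55), a stricter filter (66), the number series (92) or the log2 total count (48) as a covariate, and a fit of only the groups compared (55). With 1 mouse left out it ran from 25 to 119. It moved by over 1.5 times without zalfermin mouse 1 (27), 2 (40) or 6 (31), and without semaglutide mouse 3 (119), 6 (27), 7 (25) or 8 (29). It also moved that far without low-dose semaglutide mouse 6 (119, with all 63 shared), which enters the high-dose comparison only through the shared fit. All 63 kept their direction where tested in these fits. The share of called genes with the same direction at the low doses was 82.5%, 91.7% with the log2 total count as a covariate, and 80.9% to 92.6% with 1 mouse left out. Without low-dose semaglutide mouse 6, which is part of the low-dose comparison, that share was 91.6%. The drug difference at high minus low doses gave 1 gene, Pnldc1, in the fit of only the groups compared. The difference on the second component was 1.64 on log2 CPM. Total reads differed by -3.36 to -1.80 M with 1 mouse left out, and passed the exact permutation test without zalfermin mouse 8 (p = 0.0283). Over 1216 refitted values of the 38 named genes tested, 1042 stayed on their side of the threshold, 169 lost the call, and 5 changed sign, all of the uncalled Fgfr1, at -0.059 to 0.13 with a mouse left out. List medians moved by less than the spread between mice with DESeq2's size factors. Each label number belongs to 1 mouse, so no number is shared between groups. With a replicate block for the 15 runs of label numbers with gaps of at most 2 (7 runs hold both high-dose groups), an alternative chosen after seeing the data, 101 genes were called (58 of the 63 shared), and Cyp2b13 and Shc2 lost their calls among the named genes. Depth limits genes near 1 CPM, which rest on few reads per mouse.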
